A study of Mus musculus with 2 samples.

Results

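Cajal-Retzius cells, the reelin-secreting neurons of the outermost cortical and hippocampal layer, made up 443 of 11605 kept cells in 2 single-cell RNA libraries of mouse hippocampus. A cell was taken as a member when it had at least 1 unique molecular identifier (UMI, the tag that marks 1 captured transcript) of Reln and UMIs of at least 2 of the 7 genes Ndnf, Nhlh2, Trp73, Lhx1, Lhx5, Snhg11 and Syt1. It also had to have UMIs of at most 2 of the 7 exclusion genes Cldn5, Vtn, Mog, Aqp4, Gja1, C1qa and Pdgfra, which mark endothelial, mural, oligodendrocyte, astrocyte, microglial and oligodendrocyte precursor cells. The Mr1-/- library held 165 members among 5278 kept cells, and the Mr1+/+ library held 278 among 6327.

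Each genotype was represented by 1 library, so no difference between genotypes has a replicate, and none was tested. Both groups of mice were 7 months old and received no treatment. Mr1 encodes an MHC class I-like molecule that displays riboflavin-derived metabolites of microbes to MAIT cells, an innate-like T cell subset. The Mr1-/- label denotes mice without functional Mr1. The strain label gives only the Mr1 genotype, and the genetic background, the deleted part of the gene and the number of mice per library are not given in the sources used here. Hippocampi were dissociated, and live nucleated cells (DAPI-negative, Draq5-positive) were sorted by flow cytometry before 10x Genomics 5' libraries were made. The series title calls the sequenced cells non-neuronal, and the members described here are neurons that were caught in that sort.

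In development, Cajal-Retzius cells come from the cortical hem, septum and other borders of the pallium, migrate tangentially under the pia, and secrete reelin, a large extracellular protein. Reelin binds the receptors Vldlr and Lrp8 on migrating neurons, which leads to phosphorylation of the adaptor Dab1 and to correct layering. Most of these cells die after birth in the neocortex, whereas a larger share persists in the hippocampus, where they are glutamatergic neurons lying along the hippocampal fissure. They depend on the transcription factor p73 (Trp73), and meningeal Cxcl12 acting on their receptor Cxcr4 holds them beneath the pia.

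Kept cells carried 18234665 UMIs in Mr1-/- and 23136818 in Mr1+/+. Mr1-/- members held 611846 UMIs (515 to 8832 per cell, median 3511), and Mr1+/+ members held 1093588 (503 to 14757 per cell, median 3604). Their median number of detected genes was 1914 in Mr1-/- and 1996 in Mr1+/+, and their median mitochondrial share was 1.49% in Mr1-/- and 1.38% in Mr1+/+. The libraries shared 44 cell barcodes of 5347 in Mr1-/- and 6410 in Mr1+/+. Mr1 itself, which checks the labels, had 2 UMIs in all kept Mr1-/- cells and 138 in all kept Mr1+/+ cells. In the members it had 0 UMIs in Mr1-/- and 1 in Mr1+/+, so the genotype could not be read from these cells alone (a count of 0 allows up to 4.90 CPM, UMIs of a gene scaled to a common total of UMIs per group, the usual counts-per-million unit).

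Nearly all Reln transcripts of the hippocampal libraries lay in the members, a description that follows in part from the rule. Of 1307 Reln UMIs in the Mr1-/- library, 1288 were in members (98.5%), and of 2287 in the Mr1+/+ library, 2235 were (97.7%). A member had a median of 7 Reln UMIs in both genotypes, with a highest count of 25 in Mr1-/- and 32 in Mr1+/+. The summed level was 2105 CPM in Mr1-/- members and 2044 CPM in Mr1+/+ members. Reln (ENSMUSG00000042453) spans chr5:21884454-22344702 of mm10, minus strand. Among oligodendrocytes, which should lack it, 0.201% of Mr1-/- and 0.874% of Mr1+/+ cells had a Reln UMI.

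The 7 positive genes were detected in different shares of members. Ndnf, a secreted neurotrophic factor, had UMIs in 162 Mr1-/- members (98.2%) and 257 Mr1+/+ members (92.4%). The helix-loop-helix factor Nhlh2 was seen in 122 (73.9%) and 200 (71.9%), in the same order of genotypes, and Trp73 in 100 (60.6%) and 169 (60.8%). Lhx1 and Lhx5, LIM-homeobox factors of this lineage, were seen in 93 (56.4%) and 76 (46.1%) Mr1-/- members, against 124 (44.6%) and 130 (46.8%) Mr1+/+ members. Members held over 94% of the UMIs of each of Nhlh2, Lhx1 and Lhx5 in both libraries. Of the Ndnf UMIs, 76.5% in Mr1-/- and 85.9% in Mr1+/+ were in members. These genes select the members, so these shares follow in part from the rule. Snhg11, a neuronal RNA, and Syt1, a synaptic calcium sensor found in neurons of every kind, were seen in 98.8% and 90.9% of Mr1-/- members and in 98.2% and 87.8% of Mr1+/+ members.

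**Figure D1:**
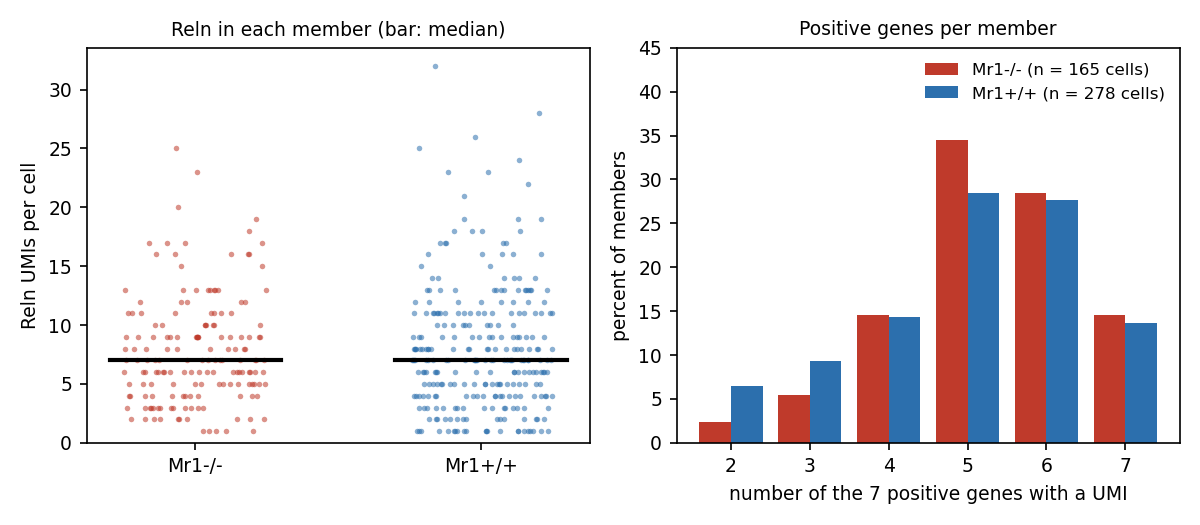
Left, Reln UMIs (y axis) of each member, 1 point per cell, in the Mr1-/- and Mr1+/+ libraries, with the median (7 in both) as a bar. Right, percent of members (y axis) by the number of the 7 positive genes with a UMI (x axis). Members with only 2 positive genes numbered 4 in Mr1-/- and 18 in Mr1+/+.

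Inside the edge of the rule, members with only 2 positive genes numbered 4 in Mr1-/- (median 876 UMIs) and 18 in Mr1+/+ (750 UMIs), and those with only 1 Reln UMI numbered 5 in Mr1-/- and 22 in Mr1+/+. None of the Mr1-/- members and 5 of the Mr1+/+ members lacked every one of Trp73, Lhx1, Lhx5, Nhlh2 and Ndnf. Just outside, 7 Mr1-/- cells (median 5220 UMIs) and 11 Mr1+/+ cells (1119 UMIs) had a Reln UMI and 1 positive gene, and 10 Mr1-/- (4913 UMIs) and 23 Mr1+/+ cells (3091 UMIs) had a Reln UMI and none. Cells with 0 Reln UMIs and 2 positive genes numbered 17 in Mr1-/- (4857 UMIs) and 39 in Mr1+/+ (5026 UMIs). A further 2 Mr1-/- (5784 UMIs) and 7 Mr1+/+ cells (869 UMIs) had 3 or more positive genes but 0 Reln UMIs, and 1 Mr1+/+ cell had 3 exclusion genes.

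The members stayed together when the 15 rule genes were taken out. In a Leiden clustering of all kept cells without these genes, 1 cluster held 426 of the 443 members. It held 162 of 165 Mr1-/- members (98.2%) and 264 of 278 Mr1+/+ members (95%), and members were 96.4% of its Mr1-/- cells and 91.4% of its Mr1+/+ cells. The genes clustered on come from the same cells as the rule, so this describes them and tests nothing. Of the members placed elsewhere, 2 of 3 in Mr1-/- and 13 of 14 in Mr1+/+ carried an exclusion gene.

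The label was checked against 15 Cajal-Retzius markers, of which 7 are rule genes and give no independent check. The other 8 (Calb2, Ebf1, Ebf2, Ebf3, Cacna2d2, Car10, Cxcr4 and Slc17a6) summed to 1376 CPM in Mr1-/- members and 1375 CPM in Mr1+/+ members. In other neurons of the same libraries they had 444 and 679 CPM, and in all non-member cells 156 and 138 CPM. In each genotype 6 of these 8 were seen in at least 10% of members, while Ebf1 was seen in fewer and Ebf2 had 0 UMIs. Of 10 markers of GABAergic interneurons, which include the other reelin-positive neurons of the adult hippocampus, 1 was seen in at least 10% of members in each genotype, and the other 9 had at most 3 UMIs in members of either genotype. Gad2, which makes GABA, and the interneuron genes Sst, Vip, Lhx6 and Dlx1 had 0 UMIs in all 443 members. Gad1, the other GABA-synthesising enzyme, had 1 UMI in Mr1-/- and 0 in Mr1+/+ members, and the vesicular GABA transporter Slc32a1 had 0 in Mr1-/- and 1 in Mr1+/+ members. Of the neuroblast list only Calb2 (calretinin), a known Cajal-Retzius marker, was seen in 10% of members. Calb2 was not higher in members than in other neurons. It had 348 CPM in Mr1-/- and 392 CPM in Mr1+/+ members, against 366.5 and 591.5 CPM in other neurons.

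RNA of other cell types was unequal between the libraries. A list of 6 astrocyte markers summed to 78.5 CPM in Mr1-/- members and 795 CPM in Mr1+/+ members, and to 2543 CPM and 4182 CPM in all other cells of the same libraries. Cells with at least 3 of these markers numbered 1 in Mr1-/- and 13 in Mr1+/+, and those 13 held 787 of the 869 astrocyte UMIs of Mr1+/+ members. Members with at least 3 microglial markers numbered 1 in Mr1-/- and 12 in Mr1+/+, those with 3 oligodendrocyte markers 4 and 8, with 3 endothelial markers 4 and 8, and with 3 mural markers 2 and 6, with Mr1-/- given before Mr1+/+ in each pair. Summed over all members, 6 microglial markers had 50.7 CPM in Mr1-/- and 271 CPM in Mr1+/+, 6 mural markers 317 and 691 CPM, 6 endothelial markers 301 and 293 CPM, and 6 oligodendrocyte markers 1077 and 1226 CPM. Astrocyte, microglial and mural RNA was therefore higher in Mr1+/+ members and sat in a small number of cells. Members with 0 UMIs of all 7 exclusion genes numbered 147 in Mr1-/- and 220 in Mr1+/+, and results between genotypes are given for these cells too. Erythroid markers (Hba-a1, Hbb-bs and Alas2), which summed to 377 CPM in all other Mr1-/- cells and 159 CPM in all other Mr1+/+ cells, had 0 UMIs in members of both. Scrublet, a doublet caller, marked 8 Mr1-/- members (4.85%) and 27 Mr1+/+ members (9.71%), which the rule keeps.

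**Figure D2:**
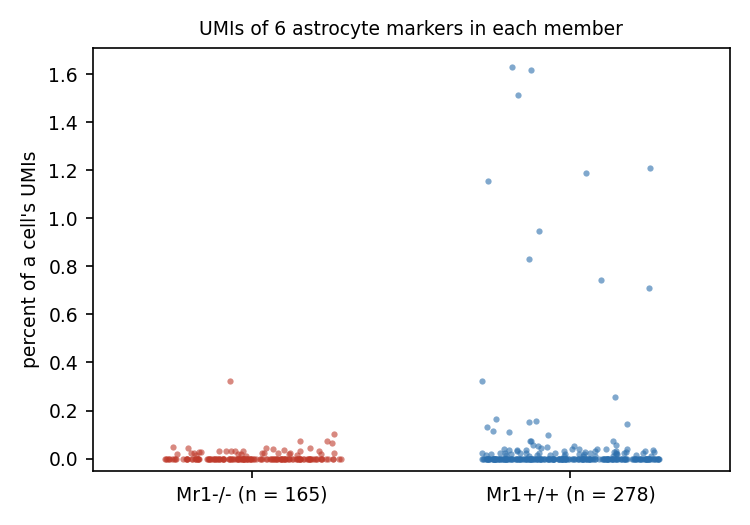
Percent of each member's UMIs that came from 6 astrocyte markers (y axis), 1 point per cell, in the Mr1-/- and Mr1+/+ libraries. The highest Mr1-/- member reached 0.324%, while a small number of Mr1+/+ members lay well above that, up to 1.63%.

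The share of Cajal-Retzius cells was lower in the Mr1-/- library. Members were 3.13% of Mr1-/- cells (95% Clopper-Pearson interval 2.67 to 3.63) and 4.39% of Mr1+/+ cells (3.90 to 4.93). The share was thus -1.27 percentage points apart (95% Newcombe interval -1.96 to -0.573). These intervals, like all intervals here, cover counting error only. Differences in animals, dissection, sorting or library preparation cannot be told apart from genotype. Among members with 0 exclusion genes the difference was -0.692 points (-1.32 to -0.0520). With every cell thinned to 1500 UMIs it was -0.955 points (-1.68 to -0.228), from 146 of 4721 Mr1-/- cells and 218 of 5386 Mr1+/+ cells, with 557 and 941 shallower cells left out. Shares of one library sum to 100%, and others moved as well. Cells marked as oligodendrocytes made up 18.9% of the Mr1-/- and 23.5% of the Mr1+/+ library, and cells marked as microglia made up 13.6% and 10.9%. The part of these shifts in the members' share was not tested.

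Set against all other cells, the members carried a broad neuronal programme. Of 13870 genes compared, 220 (1.59%) were at least 4-fold higher and 304 (2.19%) at least 4-fold lower in members of both libraries, on a scale of CPM plus 20. Pcp4, a small calmodulin-binding protein, had 1881 CPM in Mr1-/- members and 1611 CPM in Mr1+/+ members, against 11.3 and 21.1 CPM in the other cells of the same libraries. Nxph4, a neurexophilin, had 950 and 915 CPM against 16.7 and 13.6 CPM, in the same order. Next in rank came Gap43, a growth cone protein (783 CPM in Mr1-/- and 661 CPM in Mr1+/+ members), and Ly6h, a modulator of nicotinic receptors (1409 and 1262 CPM). These are levels in neurons set against a library made up mainly of glial and vascular cells, so a comparison with other neurons follows.

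The other neurons were 78 Mr1-/- and 121 Mr1+/+ cells with at least 3 of 8 pan-neuronal genes, and they were a mixed set. They carried Igfbpl1 (1324 CPM in Mr1-/- and 1413 CPM in Mr1+/+) and Neurod1 (286 and 389 CPM), genes of newborn neurons, Dlx1 (334 and 147 CPM), a factor of GABAergic precursors, and Olig1 (829 and 975 CPM), an oligodendrocyte lineage factor. All 4 were among the 15 genes lowest in members. Against other neurons with 0 exclusion genes, Olig1 and Lhfpl3 were no longer 4-fold lower, while the other 13 of these and the 15 highest genes still passed 4-fold. Of 5973 genes compared, 48 (0.804%) were at least 4-fold higher and 68 (1.14%) at least 4-fold lower in members of both libraries. The 8 pan-neuronal genes that chose the other neurons were not left out of these ranks and counts. Nrxn3, among those 8 and among the 15 lowest, owes its place in part to that choice.

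Among the 15 genes highest over other neurons were the secreted factors Cxcl12 and Gdf5. Cxcl12, the chemokine that guides these cells, had 958 CPM in Mr1-/- members and 668 CPM in Mr1+/+ members, against 13.4 and 25.4 CPM in the other neurons of the same libraries. It was seen in 83.6% of Mr1-/- and 74.1% of Mr1+/+ members, against 3.52% and 3.70% of oligodendrocytes, although the remaining cells of the libraries also held 449 and 348 CPM. Gdf5, a growth factor of the bone morphogenetic protein family, had 239 CPM in Mr1-/- and 198 CPM in Mr1+/+ members, against 2.68 CPM in Mr1-/- and 0 CPM in Mr1+/+ other neurons. Both genes were close to missing from other neurons. Cxcr4, the receptor of Cxcl12, had 78.5 CPM in Mr1-/- and 44.8 CPM in Mr1+/+ members, a ratio of 1.75 (95% exact conditional interval 1.15 to 2.66).

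Ass1, argininosuccinate synthase of the urea and arginine pathway, had 513 CPM in Mr1-/- and 405 CPM in Mr1+/+ members, against 10.7 and 22 CPM in other neurons. Cd274, which encodes the immune checkpoint ligand PD-L1, had 183 CPM in Mr1-/- and 160 CPM in Mr1+/+ members, against 0 and 1.69 CPM in other neurons. It was seen in 44.2% of Mr1-/- and 38.8% of Mr1+/+ members, against 4.18% and 2.03% of microglia. The members' share lay above that of microglia in both libraries. Clstn2, a synaptic cadherin, had 484 and 417 CPM in members against 26.8 and 37.2 CPM, and Tmem163, a zinc transporter of synaptic vesicles, had 585 and 542 CPM against 21.4 and 52.4 CPM, in the same order of genotypes. Utrn (utrophin), Ankrd35, Fam159b, Thsd7b and the calcium channel subunit Cacna2d2 completed the coding genes in the top 15 beside those named here and the factor Ebf3.

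A pair of the 15 lie next to or across another gene. Gm49027 had 585 CPM in Mr1-/- and 594 CPM in Mr1+/+ members, against 5.35 and 10.1 CPM in other neurons. In the annotation it overlaps Diablo by 12095 bases on the same strand of chromosome 5, so the assignment of these reads is uncertain. Diablo itself had 85.0 CPM in Mr1-/- and 65.8 CPM in Mr1+/+ members. Lhx1os, a long noncoding RNA, starts 125 bases from Lhx1 on the opposite strand of chromosome 11 and had 248 CPM in Mr1-/- and 198 CPM in Mr1+/+ members.

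**Figure D3:**
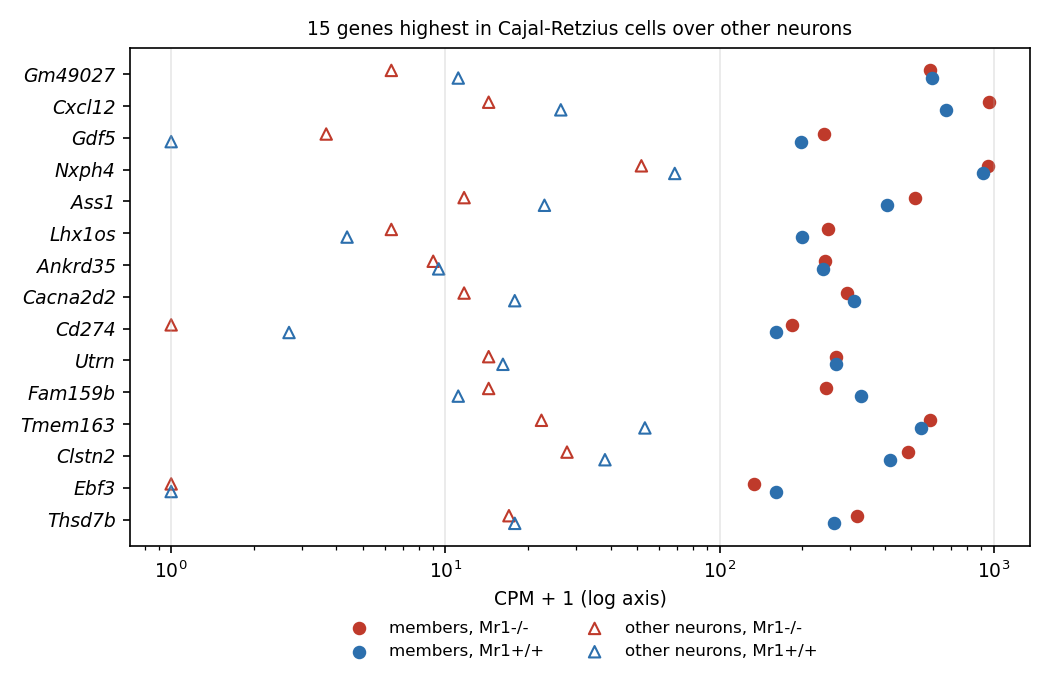
CPM plus 1 (x axis, log scale) of the 15 genes ranked highest in Cajal-Retzius cells over other neurons, with filled circles for members and open triangles for other neurons in each library. All 15 genes lay above 100 CPM in members of both libraries, and below 70 CPM in other neurons.

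The transcription factors of the lineage were present in part. Of 29 genes in this list, 23 had a UMI in a member and 10 were seen in at least 10% of members of both libraries. Nr2f2 (COUP-TFII) had 242 CPM in Mr1-/- and 241 CPM in Mr1+/+ members, in 48.5% and 51.8% of cells. Tbr1, a factor of early-born glutamatergic neurons, had 178 and 168 CPM, and Emx2, a patterning factor of the dorsal telencephalon, had 146 and 140 CPM. Ebf3 had 132 and 160 CPM in members and 0 CPM in other neurons of both libraries. Mab21l1 and Nhlh1 followed with 110 and 89.9 CPM in Mr1-/- members and 115 and 96.0 CPM in Mr1+/+ members. The 6 genes of this list with no UMI in any member were Ebf2, Emx1, Sp8, Uncx, Mab21l2 and Foxp2. Neurod1 had 0 UMIs in Mr1-/- and 4 in Mr1+/+ members. Of the 14 that could be compared, 2 were at least 4-fold above other neurons and 2 at least 4-fold below, beside 0.804% and 1.14% of all genes. The factors Nhlh2, Trp73, Lhx1 and Lhx5 are rule genes and were not compared here. By the rule they were high in members, with Nhlh2 at 525 CPM in Mr1-/- and 452 CPM in Mr1+/+. Other neurons had 8.03 and 37.2 CPM of Nhlh2.

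Of the further Cajal-Retzius markers, 18 of 20 had a UMI and 15 were seen in at least 10% of members of both libraries. In this list 10 of 16 genes compared were at least 4-fold above other neurons, beside 0.804% of all genes, and none was 4-fold below. Calb2 was uneven among members. It had 348 CPM in Mr1-/- members, with UMIs in 44.2% of them, and 392 CPM in Mr1+/+ members, with UMIs in 29.9%, and a single Mr1+/+ cell held 73 of 429 UMIs. Rspo3, a Wnt agonist of the cortical hem, had 144 CPM in Mr1-/- and 148 CPM in Mr1+/+ members, while the fetal hem signals Wnt3a and Fgf18 had 0 UMIs in all members.

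The members carried the apparatus of a glutamatergic neuron that releases from vesicles. The vesicular glutamate transporter Slc17a6 (VGLUT2) had 239 CPM in members of both genotypes and was seen in 55.2% of Mr1-/- and 55% of Mr1+/+ members. In other neurons it had 24.1 CPM in Mr1-/- and 22 CPM in Mr1+/+. Slc17a7 (VGLUT1), the transporter of pyramidal and granule neurons, had 1 UMI in Mr1-/- and 6 UMIs in Mr1+/+ members. It was named here after its values were seen. The SNARE genes Vamp2 and Snap25 had 672 and 644 CPM in Mr1-/- members and 684 and 606 CPM in Mr1+/+ members, and the vesicle GTPase Rab3a had 584 CPM in Mr1-/- and 525 CPM in Mr1+/+ members. All 30 genes of the vesicle list had a UMI, 22 of them in at least 10% of members of both libraries, and 0 of 24 differed 4-fold from other neurons.

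Transcripts of receptors for glutamate, GABA and glycine were detected. Among glutamate receptors, the AMPA subunits Gria2, Gria4 and Gria1 had 181, 94.8 and 75.2 CPM in Mr1-/- members and 216, 103 and 77.7 CPM in Mr1+/+ members. The obligatory NMDA subunit Grin1 had 71.9 CPM in Mr1-/- and 72.2 CPM in Mr1+/+ members. Of the 29 genes in this list all had a UMI in some member, but only 8 were seen in 10% of members of both libraries. For GABA, the metabotropic receptor subunit Gabbr1 was seen (302 CPM in Mr1-/-, 309 CPM in Mr1+/+), as was Glrb (150 and 161 CPM), a glycine receptor subunit. The chloride importer Slc12a2 had 13 UMIs in Mr1-/- and 14 in Mr1+/+ members, and the chloride exporter Slc12a5 had 9 in each. This pair was named after its values were seen, and at these counts no order between them could be read.

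Ion channel transcripts were spread over many genes. The 2-pore potassium channel Kcnk2 had 311 CPM in members of both genotypes, the calcium channel subunit Cacna2d1 had 250 CPM in Mr1-/- and 266 CPM in Mr1+/+ members, and the ERG-type potassium channel Kcnh7 had 209 and 252 CPM. Of 44 channel genes, 40 had a UMI and 13 were seen in 10% of members of both libraries. None of 15 compared was 4-fold from other neurons.

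All 28 genes of the reelin pathway list had a UMI, and 13 were seen in 10% of members of both libraries. The reelin receptor genes Lrp8 and Vldlr had 12 and 7 UMIs in Mr1-/- members and 23 and 11 UMIs in Mr1+/+ members, and Dab1 had 4 in Mr1-/- and 9 in Mr1+/+ members. These 3 were named for their role after their values were seen. App, the amyloid precursor, had 683 CPM in Mr1-/- and 707 CPM in Mr1+/+ members, and Pafah1b1 (LIS1), a dynein regulator, had 350 and 406 CPM. Cdk5r1, the neuronal activator of the kinase Cdk5, had 155 and 156 CPM in members against 12.4 and 13.1 CPM in all other cells. For guidance, Robo2, a receptor of Slit proteins, had 227 CPM in Mr1-/- and 213 CPM in Mr1+/+ members, and the ephrin receptor Epha3 had 86.6 and 73.2 CPM.

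Apart from Trp73, genes of the p53 family and of cell death were present at levels near those of other neurons. Trp73 is a rule gene and was left out of this comparison. It had 293 CPM in Mr1-/- and 273 CPM in Mr1+/+ members, against 5.35 and 6.76 CPM in other neurons, which follows in part from the rule. Of 26 genes, 24 had a UMI, 11 were seen in 10% of members of both libraries, and none of 13 compared was 4-fold from other neurons. Bax, a promoter of apoptosis, had 204 CPM in Mr1-/- and 200 CPM in Mr1+/+ members, against 222 and 276 CPM in other neurons. Mdm2, the ligase that degrades p53, had 110 and 117 CPM in members against 53.5 and 72.7 CPM. Ntrk2, the receptor of brain-derived neurotrophic factor, had 247 and 240 CPM in members against 136 and 166 CPM.

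Of 25 cytoskeletal genes all had a UMI and 21 were seen in 10% of members of both libraries. Against other neurons 3 of 23 compared were at least 4-fold lower, beside 1.14% of all genes. None was 4-fold higher, beside 0.804% of all genes. Stmn2, like Tubb3, also served to choose the other neurons, which carried genes of newborn neurons as given above. Stmn1 and Stmn2, microtubule regulators, had 3565 and 1275 CPM in Mr1-/- members and 3195 and 1233 CPM in Mr1+/+ members. Dcx, the doublecortin of migrating neurons, had 1 UMI in members of each genotype, and was named after its values were seen. Tubb3, a neuronal tubulin that was also used to define the other neurons, had 162 CPM in Mr1-/- and 260 CPM in Mr1+/+ members, against 1217 and 1004 CPM in other neurons. Sox4 and Sox11, factors of young neurons, were among the 15 genes lowest in members over other neurons. Sox4 had 203 CPM in Mr1-/- and 151 CPM in Mr1+/+ members against 1627 and 1159 CPM, and Sox11 had 0 and 9.14 CPM against 358 and 379 CPM. Synpr, a synaptic vesicle protein, and C1ql3, a synaptic complement-like protein, had 0 UMIs in members of both genotypes.

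Few genes differed 2-fold between Mr1-/- and Mr1+/+ members, and those that did included well-known glial and mural genes. Of 5633 genes with at least 50 UMIs over both libraries, 1 was at least 2-fold higher in Mr1-/- members (0.0178%) and 32 were at least 2-fold lower (0.568%), 0.586% together, on the scale of CPM plus 20. The lower ones included the astrocyte genes Clu (14.7 CPM in Mr1-/-, 261 CPM in Mr1+/+), Aldoc (4.90 and 176 CPM) and Apoe (141 and 754 CPM), the smooth muscle gene Acta2 (3.27 and 185 CPM) and the microglial gene C1qb (8.17 and 95.1 CPM). The marker UMIs of those cell types, given above, moved the same way, with 48 astrocyte UMIs in Mr1-/- and 869 in Mr1+/+ members. Their part in the result was not tested. Among the 147 Mr1-/- and 220 Mr1+/+ members with 0 exclusion genes, 2 of 4639 genes were at least 2-fold higher (0.0431%) and 7 lower (0.151%), 0.194% together. Of those 7, Acta2, Tagln, Myl9 and Crip1 are expressed in smooth muscle, and 1 Mr1+/+ cell held 187 of the 200 Acta2 UMIs. The other 3 were Epha5 (15.5 CPM in Mr1-/-, 53.7 CPM in Mr1+/+), Pde1a (25.2 and 74.4 CPM) and Appbp2 (21.3 and 68.4 CPM). Over all Mr1+/+ members, a single cell held 12 of the 51 Epha5 UMIs.

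The gene past 2-fold in the higher direction was Cck, which encodes the neuropeptide cholecystokinin. It had 60 UMIs (98.1 CPM, 95% Poisson interval 74.8 to 126) in Mr1-/- members and 37 UMIs (33.8 CPM, 23.8 to 46.6) in Mr1+/+ members, a ratio of 2.90 (1.89 to 4.49). It was seen in 32 Mr1-/- members (19.4%) and 27 Mr1+/+ members (9.71%), with no cell above 6 UMIs in Mr1-/- or 3 in Mr1+/+. Among oligodendrocytes 0.101% of Mr1-/- and 0.0673% of Mr1+/+ cells had a UMI, at median depths of 4222 and 4396 UMIs. In all other cells, whose few neurons had 80.3 CPM in Mr1-/- and 612 CPM in Mr1+/+, the ratio ran the other way, at 0.122 (2.10 CPM in Mr1-/- and 17.2 CPM in Mr1+/+). Among members with 0 exclusion genes the Cck ratio was 2.96 (1.87 to 4.78). On the log2 scale of CPM plus 20 its value was 1.13, and it was no longer past 2-fold when each cell weighed the same (0.86) or with a pseudocount of 50 CPM (0.82). Cck (ENSMUSG00000032532) spans chr9:121489824-121495694 of mm10, minus strand.

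Among genes with at least 0.2 times the CPM of all other cells, the next in rank were 3 further genes of synaptic signalling, none past 2-fold on this scale. Nptx2, a neuronal pentraxin that clusters AMPA receptors, had 57.2 CPM in Mr1-/- and 19.2 CPM in Mr1+/+ members (ratio 2.98, 1.69 to 5.38). Penk, the enkephalin precursor, had 194 and 96.0 CPM (2.03, 1.55 to 2.66), and Cnr1, the cannabinoid receptor CB1, had 67.0 and 27.4 CPM (2.44, 1.49 to 4.05). Each kept a log2 ratio of at least 0.80 with its highest cell left out. For Nptx2, Penk and Cnr1 in turn, log2 ratios were 0.98, 0.89 and 0.88 in the main comparison. They were 0.86, 0.60 and 0.97 when each cell weighed the same, and 0.56, 0.85 and 0.99 after thinning. With a pseudocount of 50 CPM they were 0.63, 0.74 and 0.60. Penk also varied between cells beyond counting, as given below, which its interval does not cover. The rest of the 12 named genes were Hist1h2ap, Ppil2, Zfp560, Cd2bp2, Tspan17, Btf3l4, Rbm22 and Cdk9. Hist1h2ap is a replication-dependent histone gene with many near-identical copies, so its count is uncertain.

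At the lower end, the genes that met the same level condition had few UMIs. Tmem215, a transmembrane protein, had 13.1 CPM in Mr1-/- and 53 CPM in Mr1+/+ members (8 and 58 UMIs, ratio 0.247, 0.102 to 0.519), and Dclk1, a microtubule-associated kinase, had 16.3 and 66.8 CPM (0.245, 0.113 to 0.476). In members with 0 exclusion genes Dclk1 had 15.5 and 41.5 CPM (0.373, 0.149 to 0.821) and was no longer past 2-fold, with a log2 ratio of -0.79, and in all other cells its log2 ratio was -0.80. Epha5, an ephrin receptor, had 14.7 and 46.6 CPM, and Pde1a, a calcium-activated phosphodiesterase, had 24.5 and 64.9 CPM. The Epha5 log2 ratio was -0.94 in all members and -1.05 in those with 0 exclusion genes. It was -0.82 with its highest cell left out, and -0.70 in members with a UMI of Trp73, Lhx1, Lhx5, Nhlh2 or Ndnf. Among the better counted genes, Hspa5 (BiP), a chaperone of the endoplasmic reticulum, had 123 CPM in Mr1-/- and 240 CPM in Mr1+/+ members (ratio 0.510, 0.389 to 0.661). In members with 0 exclusion genes Hspa5 had 114 and 220 CPM. Nnat, an imprinted membrane protein, had 160 and 323 CPM, and a single Mr1+/+ cell held 82 of its 353 UMIs. Sdccag8, Mmgt2, Brox, Msmo1, Appbp2 and Rev3l made up the rest of the 12.

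**Figure D4:**
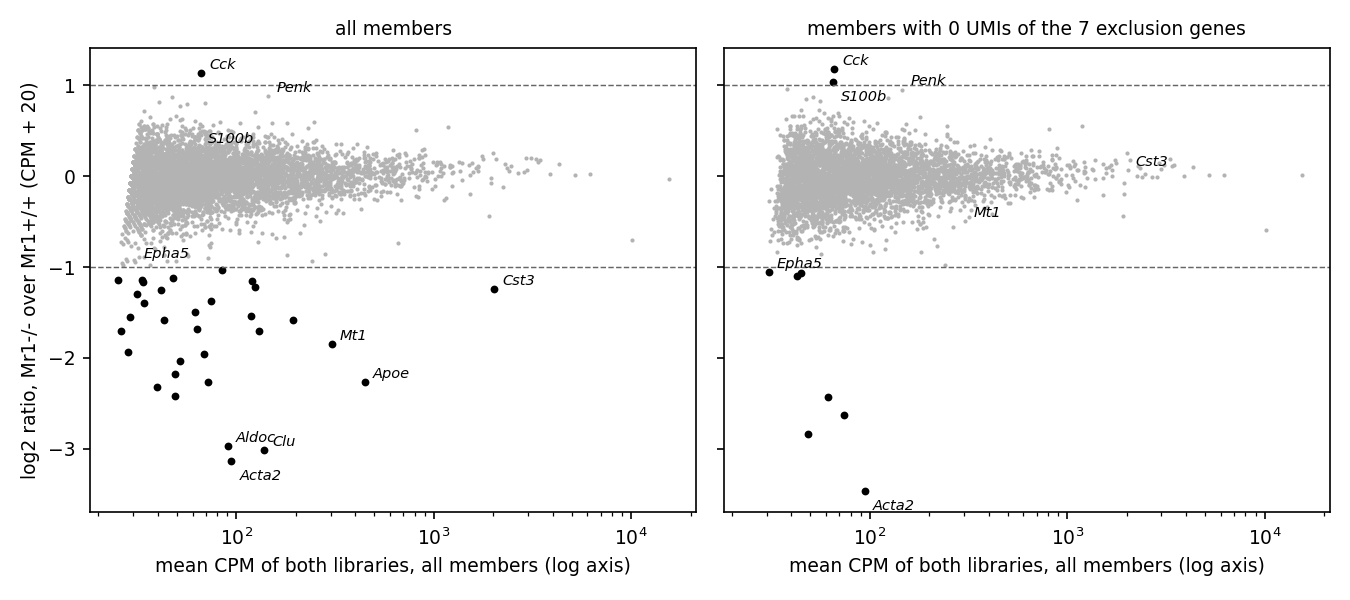
Log2 ratio of Mr1-/- over Mr1+/+ members on CPM plus 20 (y axis) against mean CPM over both libraries (x axis, log scale), 1 point per gene, for all members (left) and for members with 0 UMIs of the 7 exclusion genes (right). Black points lie past 2-fold (dashed lines): 33 genes on the left and 9 on the right, where Clu, Aldoc and Apoe are no longer past it or have too few UMIs.

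No gene in the lists of lineage factors, further markers and the reelin pathway was past 2-fold between genotypes. Of the 10 transcription factors measured, 5 were higher and 5 lower in Mr1-/- members, with a median log2 ratio of -0.00, beside -0.02 over all 5633 genes (2609 higher, 3024 lower). Of the 15 further markers measured, 9 were higher and 6 lower (median 0.05). Of the 14 reelin pathway genes, 7 were higher and 7 lower. These medians are within the reach of scaling: under median-of-ratios scaling, which moved the median of all genes to 0.00, those of the factors and the reelin genes turned to 0.02. The Slc17a6 ratio lay between 0.811 and 1.23 by its counting interval. Single genes leaned in both directions. Log2 ratios ran from -0.24 to 0.35 among the factors, -0.17 to 0.60 among the further markers and -0.98 to 0.41 among the reelin genes. Fam159b, among the 15 genes highest over other neurons, had a ratio of 0.744 (0.610 to 0.903). Lhx1, a rule gene, had 240 CPM in Mr1-/- and 173 CPM in Mr1+/+ members, and in members with 0 exclusion genes it had 261 and 174 CPM, with a ratio between 1.18 and 1.91 by its counting interval. The ratio of Ndnf, also a rule gene, was 1.20 (1.11 to 1.30) in those members, and Cxcr4 had a ratio of 1.75 in all members, as given above. In all other cells Ndnf had 22.1 CPM in Mr1-/- and 13.5 CPM in Mr1+/+, and Cxcr4 had 2.67 and 1.72 CPM. Across all 15 lists Cck, in the list of GABA and interneuron genes, was the one gene past 2-fold.

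Among synapse and channel lists, the medians of the vesicle and channel genes turned to 0.01 and 0.02 under median-of-ratios scaling. The 22 vesicle genes had a median log2 ratio of -0.01 (10 higher, 12 lower), the 15 channel genes of -0.00 (7 and 8), and the 8 glutamate genes of -0.04 (1 and 7). The 8 GABA and glycine receptor genes had a median of -0.12 (1 higher, 7 lower), which was 0.26 after thinning over the 3 genes left and -0.24 in members with 0 exclusion genes. The 21 cytoskeletal genes had a median of 0.08 (13 and 8), the 10 guidance and chemokine genes of 0.10 (7 and 3), and the 12 cell death genes of -0.04 (6 and 6). Cxcl12, in the guidance list, had a ratio of 1.43 (1.28 to 1.60), and in all other cells 1.29.

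Stress and hormone lists leaned lower in Mr1-/- members. Of 9 glucocorticoid-induced genes measured, 1 was higher and 8 were lower, with a median log2 ratio of -0.42. In all other cells the same genes had a median of -0.32, so the lower level was not seen in members alone. Tsc22d3 (GILZ), a glucocorticoid target, had 91.5 CPM in Mr1-/- and 165 CPM in Mr1+/+ members, and Ddit4, a stress-induced inhibitor of mTOR signalling, had 96.4 and 138 CPM. In members with 0 exclusion genes 5 of these genes could be measured and the median was -0.19, and without doublet calls it was -0.10. The part of RNA from other cells in this difference was not tested. Of 14 heat shock genes 4 were higher and 10 lower (median -0.20, and -0.07 in members with 0 exclusion genes), beside -0.19 in all other cells. The 11 immediate early genes had a median of 0.01 (6 higher, 5 lower).

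Class I antigen presentation genes, the family Mr1 belongs to, were near the limit of counting in these neurons. Of 15 genes 2 were seen in 10% of members of both libraries. H2-D1 had 55.6 CPM in Mr1-/- and 60.4 CPM in Mr1+/+ members, against 325 and 232 CPM in all other cells, and B2m, the shared light chain, had 52.3 and 34.8 CPM against 369 and 259 CPM. Class I genes are close paralogs, so reads may be split between them. The 4 genes measured had a median log2 ratio of -0.10 in members and 0.47 in all other cells.

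Members also differed from each other within each library, examined in those with 0 exclusion genes. Variation was measured as dispersion, the variance of a gene's counts over what its mean and each cell's depth would give by counting alone. Over 3152 genes the median was 0.989 in Mr1-/- and 0.995 in Mr1+/+ members, near the value that counting alone would give. Genes with few UMIs per cell stay near that value even where cells differ. The median therefore cannot show that most genes vary by counting alone. In both libraries 22 genes reached 2 or more. Gm42418 and AY036118, which overlap ribosomal RNA repeats, Lars2 and Malat1 led them. The rest were of mixed function and included the widely expressed genes Gapdh (2.92 in Mr1-/-, 3.04 in Mr1+/+), Ubb (2.78 and 3.23), Eef1a1 (3.06 and 2.61) and Ppia (2.10 and 2.14), as well as Nnat (3.32 and 9.62). Also among the 22 were Penk (8.21 in Mr1-/-, 5.71 in Mr1+/+), Ass1 (4.33 and 3.40), Cxcl12 (5.36 and 2.87), Calb2 (2.60 and 10.5), Nppc, the precursor of C-type natriuretic peptide (2.81 and 2.58), Npb, neuropeptide B (3.68 and 2.10), and Fxyd7, a regulator of the sodium pump (2.23 and 2.36).

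Penk was seldom found in cells with Fxyd7. Among Mr1-/- members 1 of 48 cells with Fxyd7 had a Penk UMI (2.08%), against 32.3% of those without Fxyd7. Among Mr1+/+ members the shares were 4.11% and 21.8%, in the same order. Nppc ran with Fxyd7: it was seen in 47.9% of Mr1-/- members with Fxyd7 and 8.08% of those without, and in 58.9% and 13.6% of Mr1+/+ members. Penk ran with Ass1, in 31.2% of Mr1-/- members with Ass1 and 7.41% of those without, and in 21.6% and 6.17% of Mr1+/+ members. Ass1 was less frequent in cells with Fxyd7 but not absent. It was seen in 43.75% of Mr1-/- members with Fxyd7 and 72.73% of those without, and in 47.95% and 70.75% of Mr1+/+ members. On log-scaled counts the Pearson correlation of Ass1 with Fxyd7 across cells was -0.43 in 147 Mr1-/- members and -0.37 in 220 Mr1+/+ members, and that of Nppc with Fxyd7 was 0.48 and 0.39. Cells of one library share its preparation and differ in depth, so these are descriptions.

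To describe this axis, members were parted by at least 1 UMI of Fxyd7, Nppc or Npb, a split chosen after these values were seen. It held 57 of 147 Mr1-/- members (38.8%, 30.9 to 47.1) and 96 of 220 Mr1+/+ members (43.6%, 37.0 to 50.5). Exactly 1 such UMI was found in 16 of the 57 and 22 of the 96, so the split is a cut on a range and no cell type is named from it. Cells with these genes were deeper, with median UMIs of 4339 against 2905 in Mr1-/- and 4863 against 2841 in Mr1+/+. Thinned to 1500 UMIs, the shares were 31.2% in Mr1-/- and 31.1% in Mr1+/+. The shares of both genotypes were closer after thinning than before. Among oligodendrocytes 0.503% of Mr1-/- and 0.673% of Mr1+/+ cells had Fxyd7, while Nppc, at 11.6% and 11.8% of oligodendrocytes and 0% of microglia, is also found in that cell type.

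Other genes followed the split in both libraries. Of 4636 genes, 15 (0.324%) were at least 2-fold higher and 11 (0.237%) at least 2-fold lower in members with Fxyd7, Nppc or Npb in each library. Atp1b1, a sodium pump subunit, had 291 CPM in Mr1-/- cells with these genes and 38.6 CPM in those without, and 250 and 63.4 CPM in Mr1+/+ cells. Rnd2, a small GTPase of migrating neurons, had 245 against 77.2 CPM in Mr1-/- and 282 against 69.2 CPM in Mr1+/+, and Vsnl1, a neuronal calcium sensor, had 77.7 against 15.4 CPM and 114 against 34.6 CPM. The Vsnl1 log2 ratio was 1.46 in Mr1-/- and 1.30 in Mr1+/+, and 1.73 and 0.10 after thinning. Cplx1 (complexin), a regulator of vesicle fusion, had 128 against 50.2 CPM in Mr1-/- and 144 against 37.5 CPM in Mr1+/+, and Atp6v1g2, a proton pump subunit, had 319 against 116 CPM and 286 against 107 CPM. After thinning the Atp6v1g2 log2 ratio was 0.87 in Mr1-/- and 1.14 in Mr1+/+. The vesicle calcium sensor Syt1 leaned the other way, with 661 against 884 CPM in Mr1-/- and 764 against 911 CPM in Mr1+/+. Caly, a dopamine receptor-interacting protein, was seen in 94.7% against 46.7% of Mr1-/- cells and 87.5% against 35.5% of Mr1+/+ cells.

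On the other side, Penk had 23.3 CPM in Mr1-/- members with these genes and 405 CPM in those without, and 16.9 and 216 CPM in Mr1+/+ members. Ass1 had 218 against 853 CPM in Mr1-/- and 180 against 782 CPM in Mr1+/+. Sparc, a matrix glycoprotein, had 19.4 against 108 CPM and 25.4 against 141 CPM, and Gadd45g, a stress-induced growth arrest gene, had 31.1 against 116 CPM and 23.3 against 133 CPM. Glul (glutamine synthetase), the amino acid transporter Slc1a4, Prkcb, Fam159b, Angpt1, Pnrc2 and Eln (elastin) made up the rest. After thinning, 15 of the 15 higher and 10 of the 11 lower genes kept their sign in both libraries. Of these, 7 higher and 6 lower genes were still past 2-fold in both, although only 5 of the 15 and 7 of the 11 then had 50 UMIs or more.

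Lineage genes differed in how far they followed the split. Slc17a6 had 253 against 259 CPM in Mr1-/- and 250 against 268 CPM in Mr1+/+, and Ebf3 had 144 against 150 CPM and 184 against 185 CPM. Nhlh2 was lower in cells with Fxyd7, Nppc or Npb, at 458 against 679 CPM in Mr1-/- and 347 against 675 CPM in Mr1+/+, and Cxcl12 had 688 against 1331 CPM and 546 against 908 CPM. Calb2 had 412 against 340 CPM in Mr1-/- and 557 against 202 CPM in Mr1+/+. A single Mr1+/+ cell held 73 of the 263 Calb2 UMIs on the side with Fxyd7, Nppc or Npb. None of these lineage genes was past 2-fold in both libraries. Reln, used by the rule, had 1838 against 2605 CPM in Mr1-/- and 1786 against 2737 CPM in Mr1+/+. Cck, higher in Mr1-/- members as a whole, had 85.5 CPM in Mr1-/- members with Fxyd7, Nppc or Npb and 38.1 CPM in such Mr1+/+ members, and 131 and 34.6 CPM in those without.

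**Figure D5:**
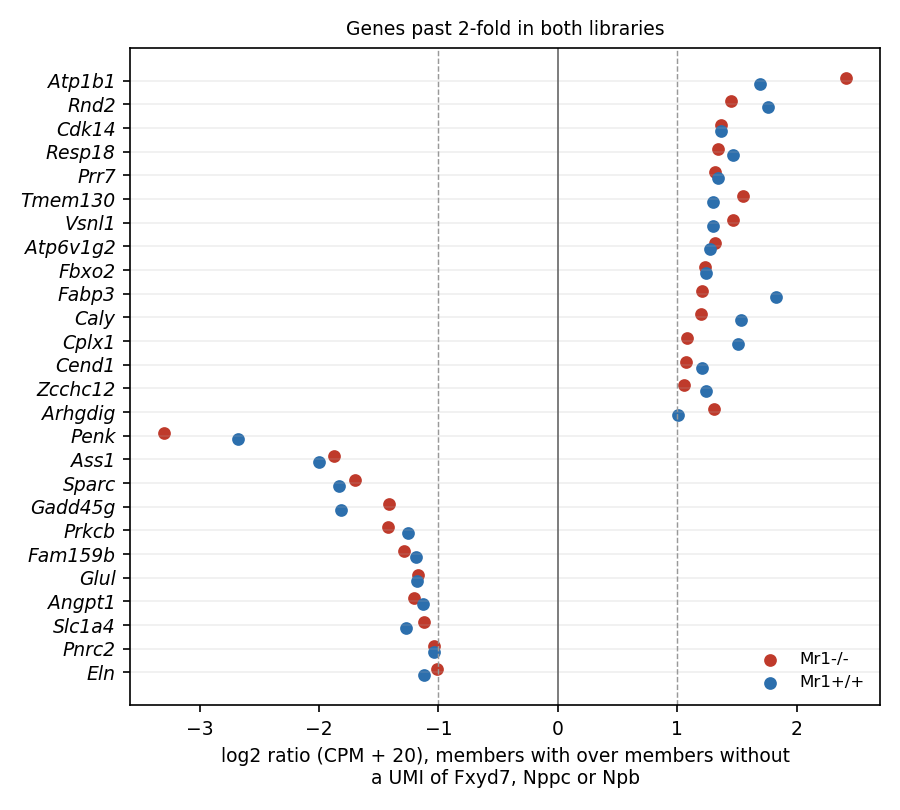
Log2 ratio on CPM plus 20 (x axis) of members with over members without a UMI of Fxyd7, Nppc or Npb, for the 26 other genes (y axis) past 2-fold (dashed lines) in both libraries, among members with 0 exclusion genes. Red points (Mr1-/-) and blue points (Mr1+/+) lie on the same side of 0 for every gene shown, as the choice of these genes requires.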

How the data were processed

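The deposited values were raw UMI counts per gene and barcode in 2 matrices, 1 per genotype, made by the authors with no normalization. Per the file headers the matrices come from Cell Ranger 3.1.0, while Cell Ranger 5.1.0, STAR and mm10 are named per the submitters' processing notes. The annotation used for counting and the barcode filter are not given in the sources used here. CPM, percent and log2 values were computed here from these counts.

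Cells with under 300 genes, or with over 10% of UMIs from mitochondrial genes, were dropped. Members were chosen with Reln and 14 other genes by the rule in the report, read as at most 2 exclusion genes detected. The members, gene lists and settings were chosen with earlier results of these data known. UMIs were summed over members of each library. Genes with at least 50 UMIs over both libraries were compared on CPM plus 20, and differences carry no test, since each genotype has 1 library. Other neurons had at least 3 of 8 genes (Snap25, Stmn2, Tubb3, Meg3, Celf4, Nrxn3, Ndrg4, Rtn1) and at most 2 exclusion genes. Counts have exact Poisson, shares Clopper-Pearson and ratios exact conditional 95% intervals, and a count of 0 was read as up to 3 counts. These limits cover counting error only.

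Genes named were the 25 highest over all other cells (examples given), the 15 highest and lowest over other neurons, the 12 highest and lowest between genotypes with at least 0.2 times the CPM of the rest of the library, and up to 6 abundant genes and the extremes of each of 15 lists. Rule genes, Xist, Tsix and Y-linked genes were left out of the ranks and of the counts past a fold change. So were genes for haemoglobin, ribosomal proteins or mitochondrial transcripts. Rule genes are given as descriptions only. Clustering used 2000 variable genes, 30 components, 15 neighbours and resolution 1.0, without the 15 rule genes. Doublets were called with Scrublet (rate 0.05), which marked 171 Mr1-/- cells (3.24%) and 335 Mr1+/+ cells (5.29%), and kept. Software was Python 3.11.15, scanpy 1.11.5, leidenalg 0.10.2, NumPy 2.4.6 and SciPy 1.17.1. The ratios and intervals were tested on simulated data. Positions are from GENCODE M21 on mm10, with 31011 of 31053 gene IDs matched. Some members of the lists are not reported here.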

Additional observations from a re-analysis of the deposited data

How the results depend on the processing

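No paired analysis was possible because each genotype has 1 library. The members' share stayed lower in Mr1-/- under all 10 alternatives run, from -0.692 to -1.29 points. Thinning and the restriction to 0 exclusion genes were chosen after seeing the data. The count of genes past 2-fold between genotypes (33) was 50 with a pseudocount of 10 CPM, 20 with 50 CPM, 51 with at least 20 UMIs, 12 after thinning and 9 in members with 0 exclusion genes, the last with 5 shared. The count past 4-fold against other neurons (116) was 211 and 39 with pseudocounts of 10 and 50 CPM. Larger pseudocounts shrink ratios of low genes by construction. The glucocorticoid median was -0.23 after thinning, and -0.40 (2 higher, 7 lower) under median-of-ratios scaling. Genes with few UMIs have wide counting intervals.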

Other observations

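Ribosomal protein transcripts took a slightly larger part of Mr1-/- members. The 101 genes made up a median of 13.1% of a member's UMIs in Mr1-/- (quartiles 10.5 and 15.5) and 11.5% in Mr1+/+ (8.96 and 13.8), and 13.2% and 11.7% after thinning to 1500 UMIs. Both distributions overlapped widely. Pnoc, the nociceptin precursor, was a further peptide gene of these cells, with 108 CPM in 24.8% of Mr1-/- members and 136 CPM in 25.2% of Mr1+/+ members, against 0.114 and 0.318 CPM in all other cells. S100b, a calcium-binding protein also found in 26.2% of oligodendrocytes of each library, was past 2-fold only in members with 0 exclusion genes, with 81.3 CPM in Mr1-/- and 29.3 CPM in Mr1+/+.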
